A study of Nicotiana tabacum with 21 samples.

Results

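Transcripts of 4 tobacco genes related to EMBRYONIC FLOWER2 (EMF2) were followed in 4 suspension cell lines of tobacco, which differ in whether they need auxin to proliferate. The 4 IDs, Nitab4.5_0007599g0010.1, Nitab4.5_0000600g0150.1, Nitab4.5_0001472g0030.1 and Nitab4.5_0002153g0020.1, are those that the study's list of 18 putative Polycomb components gives as EMF2-like, and all 4 were found among the 69491 transcripts quantified in each library. The rule itself uses no measured value, but it was set with earlier results of these libraries known, so their low levels in VBI-2 are not a blind observation. The 21 libraries form 7 groups of 3: stationary BY-2, and exponential and stationary BY-2H, VBI-0 and VBI-2. BY-2 (from cultivar Bright Yellow 2, grown in Murashige and Skoog medium with the synthetic auxin 2,4-D) and VBI-0 (from Virginia Bright Italia, grown in modified Heller medium with 2,4-D and the auxin NAA) depend on auxin. BY-2H and VBI-2 are the lines habituated from them, which proliferate in medium without auxin. All cultures were kept in darkness at 27 °C. By the series' design text, exponential cultures were sampled at 3 d and stationary ones at 10 d, and for stationary BY-2 the methods name 7 d. Exponential BY-2 was not analysed here. Each habituated line stands alone for its origin, so that line and auxin supply cannot be told apart. BY-2H RNA was read in pairs of 150 bp by a different company than that of the remaining lines, which have unpaired reads of 50 bp, and in comparisons with BY-2H these cannot be separated from the line.

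As background, EMF2 of Arabidopsis is a zinc finger protein and a subunit of Polycomb repressive complex 2 (PRC2). This complex methylates lysine 27 of histone H3, a mark that keeps developmental genes silent. EMF2 belongs with VRN2 and FIS2 to the plant relatives of the Drosophila protein Su(z)12, and other subunits are the catalytic CLF, SWN and MEA, the WD40 protein FIE and the histone-binding MSI1. Arabidopsis plants without EMF2 flower straight after germination and express floral organ genes out of place. Tobacco is an allotetraploid with an S and a T subgenome, so a gene is usually present in more than one closely related copy.

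All 4 EMF2-like transcripts have the same closest tomato gene in the study's list (Solyc03g093640). Nitab4.5_0000600g0150.1 and Nitab4.5_0001472g0030.1 also share 1 closest tobacco entry, which belongs to RefSeq gene LOC107788047 in the annotation of assembly ASM71507v2 (cultivar K326). Nitab4.5_0007599g0010.1 is paired with LOC107804934, and the entry given for Nitab4.5_0002153g0020.1 was found under no gene in that table. The annotated transcripts are 1983 nt long for Nitab4.5_0007599g0010.1, 2113 nt for Nitab4.5_0000600g0150.1, 2274 nt for Nitab4.5_0001472g0030.1 and 1911 nt for Nitab4.5_0002153g0020.1. No subgenome is assigned to them here.

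Libraries held between 10545447 and 22564711 estimated reads (read pairs in BY-2H), of which 247.999 to 2600.69 per library belonged to the 4 transcripts together. Levels are given in TPM (transcript abundance relative to all transcripts of a library), a scale that accounts for transcript length and library size. Reads fitting several transcripts are shared among them by the quantification. Estimates of Nitab4.5_0000600g0150.1, Nitab4.5_0001472g0030.1 and Nitab4.5_0002153g0020.1 were not whole numbers in all 21 libraries, and those of Nitab4.5_0007599g0010.1 in 16 (tolerance 0.001 reads). These copies can thus exchange reads with each other or with other transcripts. Their total was a whole number in each stationary BY-2 library (1288, 1419 and 1837 reads), as when reads are shared within the 4. It was not whole in exponential VBI-2 replicates 1 and 2 (324.078 and 339.471 reads). Replicates of stationary BY-2 lay farther apart than others, with 28.7 to 31.8 times the variance of read sampling between pairs of libraries, against 2.03 to 8.11 in the other groups. As a check of the line labels, the auxin receptor transcript NtTIR1T stood at 1140 to 1275 TPM in the 6 BY-2H libraries and at 0.692 to 11.7 TPM in the other 15. The labels call the replicates biological but do not say whether they were separate cultures, so p-values measure the spread between these libraries, which may be technical.

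The clearest difference was in Nitab4.5_0007599g0010.1, whose transcripts were nearly missing from VBI-2. In VBI-0 its levels were 17.0, 13.02 and 14.4 TPM in exponential and 15.7, 16.1 and 18.4 TPM in stationary cells. In VBI-2, 5 of 6 libraries held no read of it, and exponential replicate 3 held 1.23 estimated reads (0.0400 TPM). The lowest VBI-0 library had 499 reads, so that the lines did not overlap in either phase. In bulk RNA, fewer expressing cells and less transcript in each cell cannot be told apart.

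Elsewhere this copy was present at similar levels. It stood at 8.64, 10.3 and 14.8 TPM in stationary BY-2, at 12.5, 13.5 and 11.8 TPM in exponential BY-2H and at 11.6, 14.9 and 13.6 TPM in stationary BY-2H. From the highest group mean to the lowest, the order was stationary VBI-0 (16.7 ± 1.49 TPM, SD, n = 3), exponential VBI-0 (14.8 ± 2.04), stationary BY-2H (13.4 ± 1.62), exponential BY-2H (12.6 ± 0.848), stationary BY-2 (11.2 ± 3.16), and then both VBI-2 groups (0.0133 ± 0.0231 and 0). Each of the first 5 groups overlapped with the next one in this order, and the only gap lay between them and VBI-2.

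Nitab4.5_0000600g0150.1 was the most abundant copy in most groups and was also low in VBI-2. Its levels were 17.5, 14.9 and 16.1 TPM in exponential VBI-0 and 2.04, 1.89 and 2.37 TPM in exponential VBI-2. In stationary cells they were 18.6, 17.5 and 18.9 TPM in VBI-0 and 4.09, 2.88 and 2.56 TPM in VBI-2. This copy was thus reduced in VBI-2, where 72.5 to 112 reads per library remained assigned to it. Whether these reads came from this copy or from a similar one was not tested.

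In the BY lines the same transcript reached its highest levels. Stationary BY-2 had 16.9, 22.5 and 24.4 TPM, exponential BY-2H 33.6, 35.6 and 37.2 TPM, and stationary BY-2H 35.7, 36.1 and 34.4 TPM. In the order of the group means, exponential and stationary BY-2H (35.4 ± 1.78 and 35.4 ± 0.924 TPM, SD, n = 3) overlapped, and both lay above stationary BY-2 (21.3 ± 3.92 TPM). Stationary BY-2 and stationary VBI-0 (18.3 ± 0.755 TPM) overlapped, as did stationary and exponential VBI-0 (16.2 ± 1.31 TPM), and stationary VBI-2 (3.18 ± 0.805 TPM) lay above exponential VBI-2 (2.10 ± 0.244 TPM) without overlap.

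Nitab4.5_0001472g0030.1 was abundant in the BY cells and scarce in the VBI cells. It stood at 14.3, 17.1 and 17.8 TPM in stationary BY-2, at 29.3, 27.5 and 30.4 TPM in exponential BY-2H and at 33.1, 31.1 and 32.4 TPM in stationary BY-2H. In VBI-0 there were 4.74, 4.19 and 6.07 TPM in the exponential and 6.65, 6.16 and 6.66 TPM in the stationary phase. VBI-2 had 1.57, 1.72 and 1.45 TPM in exponential and 1.61, 1.49 and 1.49 TPM in stationary cells. Neighbouring groups in the order of means did not overlap, from stationary BY-2H (32.2 ± 0.984 TPM, SD, n = 3) through exponential BY-2H (29.1 ± 1.46), stationary BY-2 (16.4 ± 1.85), stationary VBI-0 (6.49 ± 0.290) and exponential VBI-0 (5.0 ± 0.968) to VBI-2. The exception was the pair of VBI-2 phases (1.58 ± 0.134 and 1.53 ± 0.0713 TPM).

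Nitab4.5_0002153g0020.1 ranged from 3.05 to 9.21 TPM over all libraries and was the copy whose level in VBI-2 lay closest to that in VBI-0. It had 8.22, 7.51 and 6.90 TPM in exponential and 9.21, 6.77 and 8.61 TPM in stationary VBI-0, and 6.10, 6.25 and 5.42 TPM in exponential and 6.14, 7.71 and 7.12 TPM in stationary VBI-2. Means were lower in the BY groups, with 3.05, 4.12 and 4.94 TPM in stationary BY-2, 5.94, 6.49 and 4.40 TPM in exponential BY-2H and 4.47, 6.25 and 5.09 TPM in stationary BY-2H. In order, the means were 8.19 ± 1.27 and 7.54 ± 0.665 TPM in stationary and exponential VBI-0, 6.99 ± 0.790 and 5.92 ± 0.444 TPM in stationary and exponential VBI-2, 5.61 ± 1.08 and 5.27 ± 0.902 TPM in exponential and stationary BY-2H and 4.04 ± 0.953 TPM in stationary BY-2 (SD, n = 3). Every group overlapped with the next one in this order. In exponential cells, however, the lowest VBI-0 library (6.90 TPM) lay above the highest VBI-2 library (6.25 TPM).

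**Figure D1:**
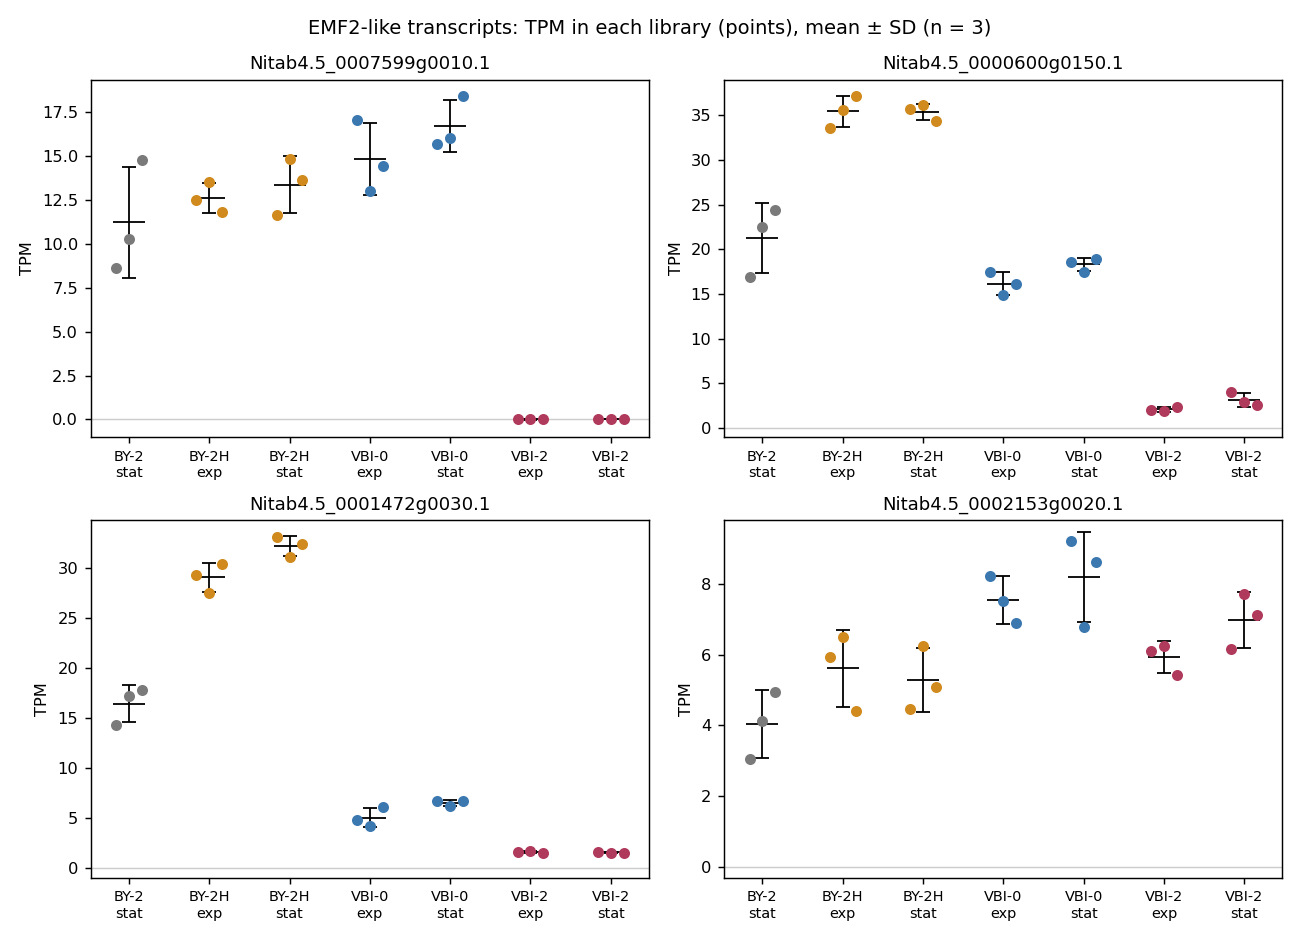
TPM of each EMF2-like transcript (y axis, 1 panel per transcript, own scale) in the 7 groups (x axis). Points are single libraries, black bars the mean ± SD (n = 3). Nitab4.5_0007599g0010.1 is at or near 0 in all 6 VBI-2 libraries, and Nitab4.5_0002153g0020.1 stays between 5.42 and 7.71 TPM there.

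Added together, EMF2-like transcripts amounted to 43.5 ± 3.95 TPM in exponential and 49.7 ± 3.09 TPM in stationary VBI-0, but to 9.62 ± 0.302 and 11.7 ± 0.469 TPM in VBI-2 (SD, n = 3). The mean was 4.53 times lower in exponential and 4.25 times lower in stationary VBI-2. Of the 6 VBI-2 libraries, the highest sum was 12.1 TPM, and the lowest of 6 VBI-0 libraries was 39.6 TPM. Stationary BY-2 had 53.0 ± 9.57 TPM, and BY-2H had 82.7 ± 1.29 in exponential and 86.2 ± 1.87 TPM in stationary cells. The sum of stationary BY-2H was 1.63 times that of BY-2, whose highest library (61.9 TPM) lay below the lowest of stationary BY-2H (84.9 TPM). This ratio is of TPM without scaling between libraries. On that scale, with 0.5 TPM added, the median of all transcripts tested was also 0.23 higher on log2 in stationary BY-2H. No test was made of the sum.

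The make-up of the sum also differed between lines. In VBI-2, Nitab4.5_0002153g0020.1 contributed 61.6% ± 2.74 in exponential and 59.8% ± 6.87 in stationary cells, against 17.4% ± 1.55 and 16.4% ± 1.90 in VBI-0 and 6.10% to 7.57% on average in the BY groups (SD, n = 3). Nitab4.5_0007599g0010.1 gave 34.0% ± 1.64 and 33.6% ± 2.06 of the VBI-0 sum, 21% ± 2.52 in BY-2 and 15.2% ± 1.07 and 15.5% ± 1.59 in BY-2H. The largest share in VBI-0, BY-2 and BY-2H was that of Nitab4.5_0000600g0150.1, at 36.9% to 42.8% on average. It was 21.9% ± 3.27 and 27.1% ± 6.44 in exponential and stationary VBI-2. Nitab4.5_0001472g0030.1 contributed 31.3% to 37.4% in the BY groups and 11.5% to 16.4% in the VBI groups. The TPM of Nitab4.5_0000600g0150.1 was 1.10 to 1.29 times that of Nitab4.5_0001472g0030.1 in the BY groups, 3.30 ± 0.567 and 2.82 ± 0.0238 times in exponential and stationary VBI-0, and 1.34 ± 0.268 and 2.06 ± 0.422 times in VBI-2. These copies share their closest RefSeq entry, and how far reads were exchanged between them was not tested.

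**Figure D2:**
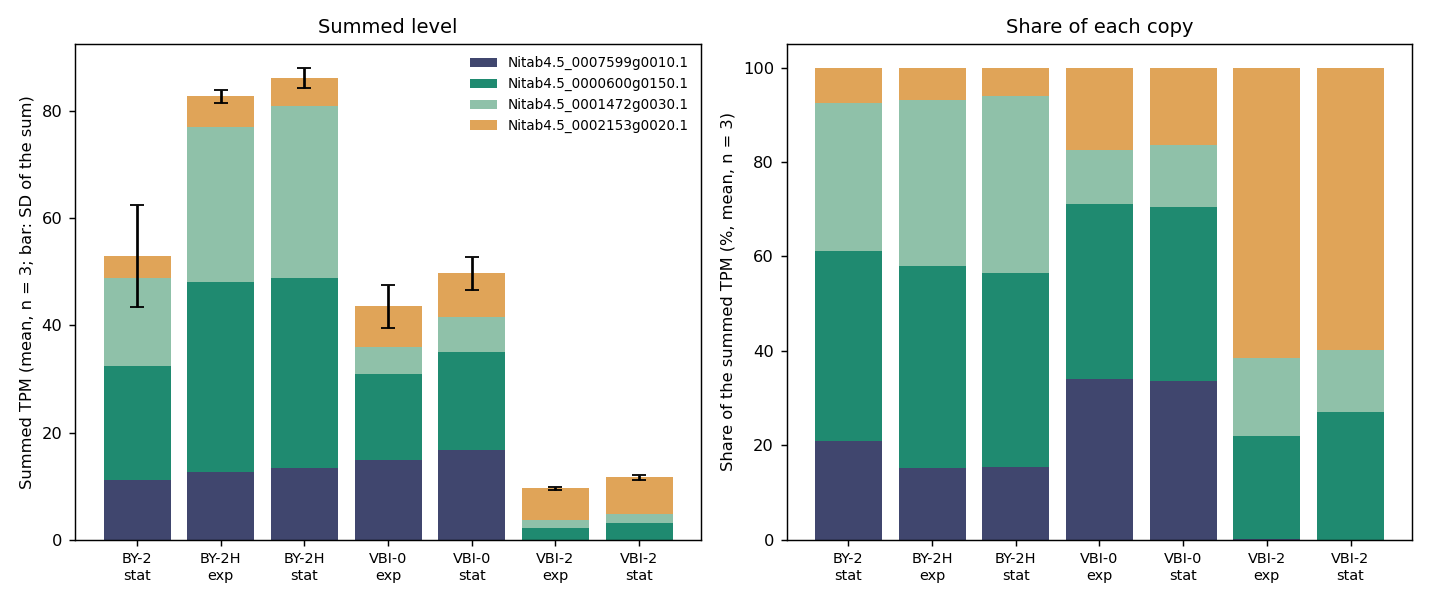
Left, summed TPM of the 4 EMF2-like transcripts per group, stacked by copy, with the SD of the sum (n = 3). Right, mean share of each copy in the sum (%). The VBI-2 sums (9.62 and 11.7 TPM) consist mostly of Nitab4.5_0002153g0020.1, which makes up 61.6% and 59.8%.

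The habituated line VBI-2 was compared with VBI-0 within each phase to ask which copies differed. Transcripts with a mean above 0.5 TPM in at least 1 of the 7 groups were tested with edgeR's quasi-likelihood test, and those with a p of 0.05 or less after Benjamini-Hochberg adjustment whose log2 fold change was 1 or more in size were called. The 4 EMF2-like transcripts passed the filter in each comparison. In VBI-2, 3 of 4 fell in the exponential and 3 of 4 in the stationary phase, where 21.5% and 22.3% of the 48440 transcripts tested were called lower. The median log2 fold change of the 4 was −2.37 and −2.47, against −0.02 and −0.03 over all transcripts tested, and as a mean of the middle pair it does not depend on the value of the nearly missing copy. Nitab4.5_0007599g0010.1 was 1771-fold lower in exponential VBI-2 (95% interval 317 to 69981, on 1.23 estimated reads, taken as 1, against 1940) and, in the stationary phase, at least 631-fold lower, where no read stood against 1833. The bound sets the 3 stationary VBI-2 libraries at a floor of 3 reads together. The exponential fold does not use this floor, so fold and bound do not rank the phases. Bound and interval cover counting error only, not how reads were shared among copies. The 1.23 estimated reads that set the exponential fold were all in VBI-2 replicate 3. The adjusted p of Nitab4.5_0007599g0010.1 was 2.01e-15 and 1.40e-15 (edgeR).

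Nitab4.5_0000600g0150.1 differed by −3.04 on the log2 scale (SE 0.15, adjusted p = 3.79e-13, edgeR) in exponential and by −2.71 (SE 0.14, adjusted p = 1.29e-12) in stationary VBI-2, that is 8.21-fold and 6.54-fold lower. For Nitab4.5_0001472g0030.1 the values were −1.70 (SE 0.15, adjusted p = 5.37e-09, edgeR) and −2.22 (SE 0.16, adjusted p = 1.07e-10). When the reads of both were added before the fit, the log2 fold change of the pair was −2.60 (SE 0.12) and −2.56 (SE 0.12). How reads were divided between this pair does not enter these values. Reads shared with the other EMF2-like copies or with other transcripts still can, and that was not tested. Nitab4.5_0002153g0020.1 was not called, since its log2 fold changes of −0.45 (SE 0.15, adjusted p = 0.0117, edgeR) and −0.39 (SE 0.15, adjusted p = 0.0268) did not reach the fold change limit.

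BY-2H was compared with BY-2 in the stationary phase. None of the 4 transcripts (0 of 4) was called there by edgeR or in any other fit with the fold change limit, where edgeR called 43.1% of 47271 transcripts in either direction. At an unadjusted p under 0.05 edgeR gave 2, Nitab4.5_0000600g0150.1 and Nitab4.5_0001472g0030.1. Their log2 fold changes were 0.58 (SE 0.17, adjusted p = 0.0150) and 0.83 (SE 0.17, adjusted p = 0.00198), below the limit of 1, and no BY-2 library reached the levels of BY-2H. Over the alternatives tried, the adjusted p ranged from 3.93e-04 to 0.105 and from 6.80e-07 to 0.0147. Nitab4.5_0007599g0010.1 (0.03, SE 0.21, adjusted p = 0.916) and Nitab4.5_0002153g0020.1 (0.24, SE 0.26, adjusted p = 0.443) were within the spread of the replicates. On the TPM scale the median of all transcripts lay 0.29 higher on log2 than after TMM scaling. There limma on log2(TPM + 0.5) called 11828 transcripts higher and 7450 lower in place of 9610 and 10776, and the 4 members had values of 0.27, 0.74, 0.96 and 0.36 in the order of the list at the start.

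Both pairs of lines can be set side by side in the stationary phase. The difference between them, the effect in VBI-2 minus that in BY-2H, was tested in 1 fit over all 21 libraries on the adjusted p alone and was negative for 4 of 4 transcripts, where 29.6% of 49980 transcripts were lower in this sense. It was −3.32 (SE 0.20, adjusted p = 9.60e-13, edgeR) for Nitab4.5_0000600g0150.1 and −3.09 (SE 0.18, adjusted p = 4.23e-13) for Nitab4.5_0001472g0030.1. For Nitab4.5_0002153g0020.1 it was −0.67 (SE 0.27, adjusted p = 0.0356), a call that was lost in 13 of 21 other fits (adjusted p 0.0221 to 0.344 over all of them). Leaving out replicate 1 of BY-2, replicate 2 of BY-2H, replicate 1 or 3 of VBI-0 or replicate 1 or 3 of VBI-2 ended it, with values of −0.66 to −0.52 (adjusted p 0.0597 to 0.116, edgeR). The median over all transcripts was −0.11.

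No difference between growth phases was called for these transcripts. Between stationary and exponential cells 0 of 4 were called in VBI-0, VBI-2 and BY-2H, where edgeR called 4.45%, 1.6% and 2.68% of all transcripts tested. DESeq2 called 0 of 4 in each line too. An unadjusted p under 0.05 was reached by Nitab4.5_0001472g0030.1 in VBI-0 (log2 fold change 0.37, SE 0.14, adjusted p = 0.0647) and by Nitab4.5_0000600g0150.1 in VBI-2 (0.49, SE 0.16, adjusted p = 0.0969), and by none in BY-2H, where values ranged from −0.08 to 0.15. The interaction of line and phase in the VBI lines was called for 0 of 4, against 6.82% of all transcripts. Nitab4.5_0001472g0030.1, which was 3.25-fold lower in exponential and 4.67-fold lower in stationary VBI-2, came closest at −0.52 (SE 0.22, adjusted p = 0.187, edgeR, unadjusted p = 0.0307), and the 0 holds in DESeq2 as well. For the summed reads of this copy and Nitab4.5_0000600g0150.1 the interaction was 0.03 (SE 0.16), and between the VBI-2 phases the copies had values of opposite sign (−0.15 and 0.49). No fold is given for Nitab4.5_0007599g0010.1 between the phases of VBI-2, since both are below the floor. With 1.23 estimated reads against none, this copy could not be called there, and its interaction rests on the same reads.

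Between the auxin-dependent lines, which share company and read type but not cultivar or medium, 1 of 4 transcripts was called in the stationary phase. Nitab4.5_0001472g0030.1 was higher in BY-2 than in VBI-0 by a difference of 1.5 on the log2 scale (SE 0.12, adjusted p = 8.32e-11, edgeR), or 2.83-fold, where 24.3% of 49980 transcripts were called higher. The summed reads of this copy and Nitab4.5_0000600g0150.1 gave 0.74 (SE 0.11), or 1.67-fold, below the limit. A sum of both copies lies between their single values, so it does not show whether the division of reads bears on the call. That was not tested. Nitab4.5_0002153g0020.1 went the other way at −0.90 (SE 0.19, adjusted p = 1.93e-04) without reaching the limit. It passed at −1.02 when VBI-0 replicate 2 was left out. The values of Nitab4.5_0000600g0150.1 (0.33, SE 0.13, adjusted p = 0.0367) and Nitab4.5_0007599g0010.1 (−0.41, SE 0.16, adjusted p = 0.0242) were smaller.

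Between the habituated lines 3 of 4 transcripts were higher in BY-2H than in VBI-2 in the exponential and 3 of 4 in the stationary phase (26.3% of all transcripts higher in each). The VBI-2 libraries are those already compared with VBI-0, so this is not a separate observation of their low levels. Log2 fold changes were 4.19 (SE 0.16) and 3.65 (SE 0.15) for Nitab4.5_0000600g0150.1 and 4.33 (SE 0.14) and 4.59 (SE 0.14) for Nitab4.5_0001472g0030.1. Nitab4.5_0007599g0010.1 was 1455-fold lower in exponential VBI-2 (95% interval 261 to 57543, on the same 1.23 estimated reads). In the stationary phase, its level there was lower by at least 490.4-fold, a bound at the floor of 3 reads that does not rank the phases. Nitab4.5_0002153g0020.1 had values of 0.04 (SE 0.19, adjusted p = 0.896, edgeR) and −0.23 (SE 0.19, adjusted p = 0.283), within the replicate spread.

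The other 14 transcripts of the PRC2 list, whose subunits the list does not name, have 6 closest tomato genes and were all expressed above 0.5 TPM on average in each of the 7 groups. In VBI-2, 2 of the 14 fell and 1 rose in both phases, where 21.5% and 22.3% of all transcripts fell and 17.1% and 17.7% rose. Their median log2 fold change was 0.03 in exponential and −0.02 in stationary cells. Nitab4.5_0000397g0030.1 fell from 18.1 ± 1.13 to 9.21 ± 0.580 TPM in exponential cells (log2 fold change −1.20, SE 0.13, adjusted p = 6.34e-08, edgeR). Nitab4.5_0009192g0020.1, which has the same closest tomato and RefSeq entries, rose from 1.45 ± 0.657 to 4.39 ± 0.449 TPM (1.32, SE 0.31, adjusted p = 8.39e-04). Together they went from 19.5 ± 0.841 to 13.6 ± 0.537 TPM, and exchange of reads between them was not tested. Nitab4.5_0005539g0030.1 fell from 29.6 ± 2.38 to 14.9 ± 0.337 TPM (−1.23, SE 0.09, adjusted p = 4.53e-10, edgeR, SD, n = 3 throughout). In stationary cells the log2 fold changes of these transcripts were −1.10, 2.44 and −1.06 in the same order.

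Summed by closest tomato gene, the EMF2-like copies stood apart in VBI-2. Their mean sum was 0.221 times that of VBI-0 in exponential and 0.235 times in stationary cells, whereas the sums of the 6 other families lay between 0.696 and 1.95 times and between 0.704 and 1.65 times. These ratios were not tested. In BY-2H, 2 of the other 14 rose (20.3% of all transcripts rose) and 0 fell by edgeR. Nitab4.5_0003914g0030.1 went from 2.94 ± 1.95 to 27.5 ± 0.442 TPM (2.78, SE 0.37, adjusted p = 1.10e-04, edgeR) and Nitab4.5_0004005g0020.1 from 8.44 ± 2.18 to 35.8 ± 1.39 TPM (1.54, SE 0.19, adjusted p = 6.11e-05; SD, n = 3). The family sums ranged from 0.900 to 3.47 times those of BY-2, with the EMF2-like sum at 1.63 times within this range. These too are ratios of TPM without scaling between libraries.

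**Figure D3:**
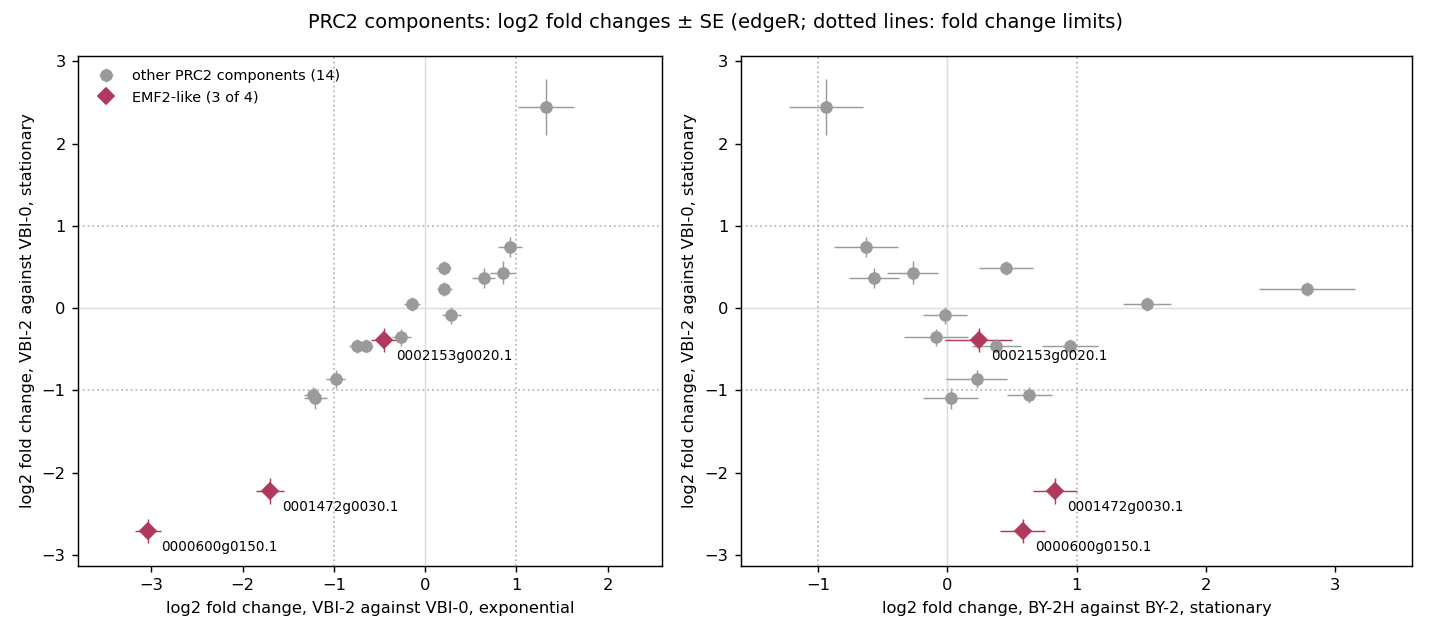
Log2 fold changes ± SE (edgeR) of 3 EMF2-like transcripts (diamonds) and the other 14 PRC2 transcripts (circles), for stationary VBI-2 (y axis) against exponential VBI-2 (left) and stationary BY-2H (right), each relative to its auxin-dependent line. Dotted lines mark the limit of 1, and Nitab4.5_0007599g0010.1 is left out because it has no finite fold in stationary VBI-2. Nitab4.5_0000600g0150.1 and Nitab4.5_0001472g0030.1 lie below the other PRC2 transcripts in VBI-2 and at 0.58 and 0.83 in BY-2H.

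Transcripts annotated on the same genome scaffolds were examined next, in the order of the gene numbers in their IDs. The only other transcript on the scaffold of Nitab4.5_0007599g0010.1, Nitab4.5_0007599g0020.1, was low in the same libraries. It stood at 9.65, 8.01 and 6.56 TPM in exponential and 10.9, 10.2 and 10.2 TPM in stationary VBI-0, and kept 3 reads in all of VBI-2 against 394 in VBI-0. It was called lower in VBI-2 in both phases (adjusted p = 2.83e-09 and 8.99e-10, edgeR). In stationary BY-2H it was lower as well (log2 fold change −1.73, SE 0.42, adjusted p = 0.00516), where the EMF2-like neighbour was not.

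Among all transcripts tested, 21.5% fell in exponential and 22.3% in stationary VBI-2. On the scaffold of Nitab4.5_0000600g0150.1, 8 of the 10 other transcripts tested fell in VBI-2 in each phase and none rose, of 15 annotated. Of 8 that were above 0.5 TPM in VBI-0, 7 had no read in any VBI-2 library. The remaining one was Nitab4.5_0000600g0030.1, at 1.77 and 2.57 TPM on average in exponential and stationary VBI-2. The next transcript on one side, Nitab4.5_0000600g0140.1, had 37.1 reads in VBI-0 and none in VBI-2 (adjusted p = 0.0103 and 0.00201, edgeR), and that on the other side, Nitab4.5_0000600g0160.1, was listed at 0 TPM in every group. Nitab4.5_0000600g0150.1 itself had 521 reads assigned to it over the 6 VBI-2 libraries. In stationary BY-2H, 5 of the 10 rose and 2 fell, where 20.3% of all transcripts rose and 22.8% fell.

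The counts on the remaining scaffolds stand against the same 21.5% and 22.3% of all transcripts that fell in exponential and stationary VBI-2. On the scaffold of Nitab4.5_0001472g0030.1, 3 of 4 other tested transcripts fell in exponential and 1 of 4 in stationary VBI-2 (Nitab4.5_0001472g0120.1, −1.65, SE 0.19), and none rose. Its neighbours were barely expressed: Nitab4.5_0001472g0020.1 had 24.1 reads in VBI-0 and none in VBI-2 (called lower in exponential cells, adjusted p = 0.00194, edgeR), and Nitab4.5_0001472g0040.1 had none in either line. On the scaffold of Nitab4.5_0002153g0020.1, 1 of 5 others, Nitab4.5_0002153g0060.1, fell in exponential cells (from 302 to 159 TPM on average). None was called in stationary ones, where the same transcript went from 289 to 149 TPM, just inside the limit at −0.98. Nitab4.5_0002153g0030.1 was at 0.779 and 0.908 TPM in VBI-0 and 0.728 and 1.52 TPM in VBI-2, and Nitab4.5_0002153g0010.1 had 3 reads in all 12 VBI libraries. Transcripts of 1 scaffold are not independent of each other, and the counts are given as a description.

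**Figure D4:**
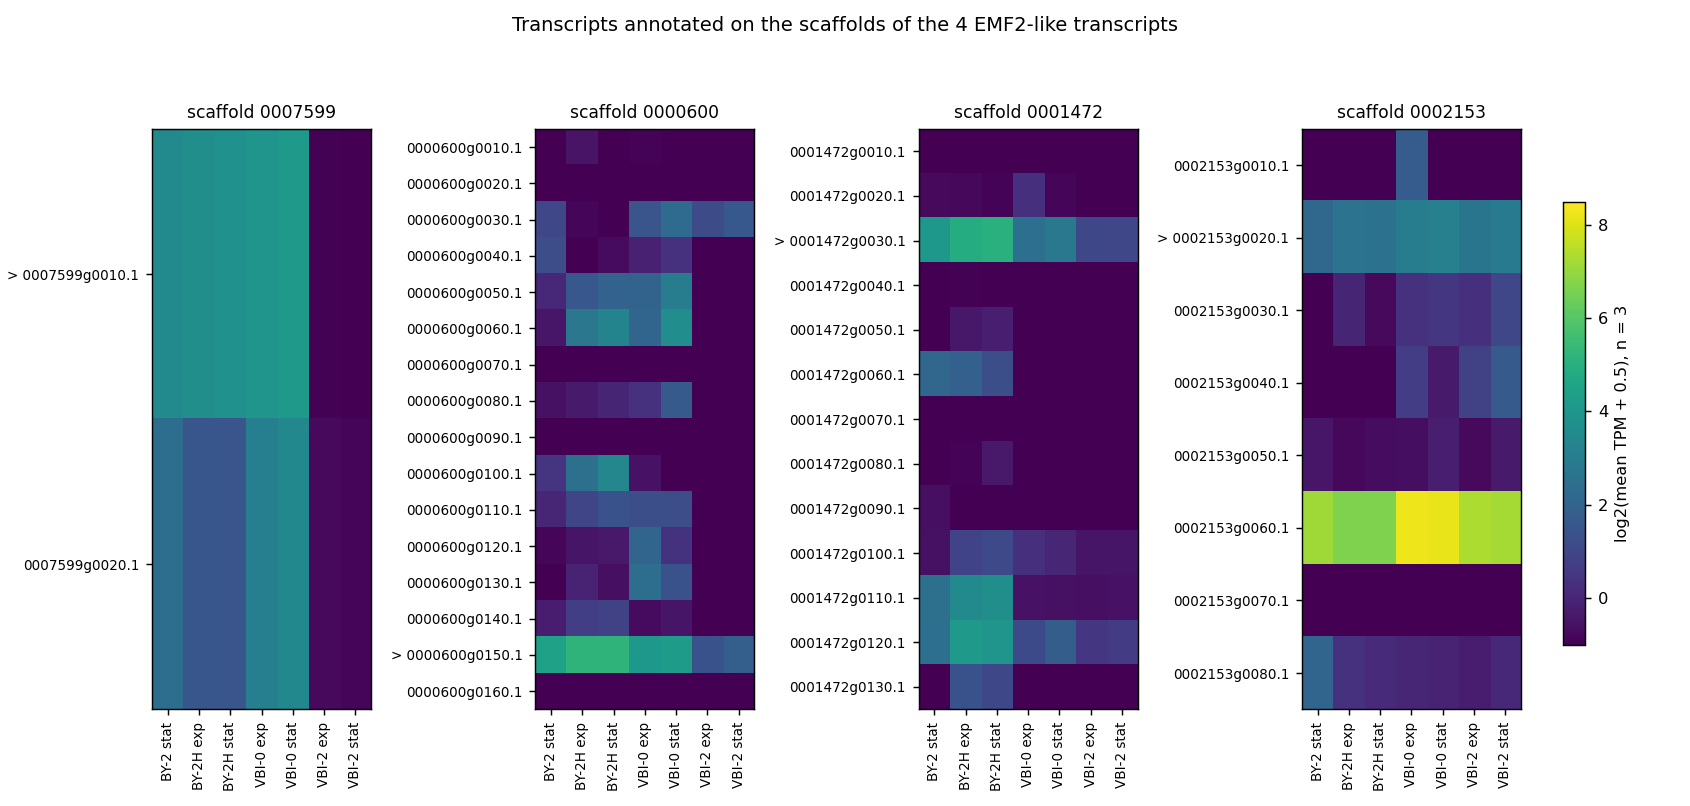
Mean levels, as log2(TPM + 0.5), of all transcripts annotated on the 4 scaffolds (rows, in order of gene number, with > before the EMF2-like one) in the 7 groups (columns, n = 3). On scaffold 0000600 the 7 transcripts above 0.5 TPM in VBI-0 that had no read in VBI-2 appear in the darkest shade in both VBI-2 columns.

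To place the near loss of Nitab4.5_0007599g0010.1, transcripts as abundant in VBI-0 were counted, with limits chosen after its values were seen. Of 14247 transcripts with at least 10 TPM on average in both VBI-0 groups, 413 (2.9%) had fewer than 2 reads over the 6 VBI-2 libraries. The 5 transcripts whose log2(TPM + 0.5) followed it most closely over the 21 libraries (Pearson r 0.997 to 0.998 among 49979 ranked) were Nitab4.5_0009641g0070.1, Nitab4.5_0000514g0160.1, Nitab4.5_0000976g0330.1, Nitab4.5_0000646g0190.1 and Nitab4.5_0008337g0040.1. Their VBI-2 means were all between 0 and 0.0227 TPM, which is no separate observation, as they were picked for a like profile. For Nitab4.5_0000600g0150.1 the 5 closest (r 0.990 to 0.991) included Nitab4.5_0000472g0310.1 and Nitab4.5_0001171g0100.1, and for Nitab4.5_0001472g0030.1 (r 0.990 to 0.994) Nitab4.5_0001691g0200.1 and Nitab4.5_0000737g0040.1. For Nitab4.5_0002153g0020.1 the 5 highest r were 0.892 to 0.915, led by Nitab4.5_0001362g0110.1. Its level varied less between groups, so these r cannot be set against those of the other copies. The 21 points are 7 groups of 3 replicates, so that a high r reflects the order of the groups more than single libraries.

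The 6 floral MADS-box transcripts that the study picked on these same libraries (homologs of APETALA3, PISTILLATA, AGAMOUS and SEPALLATA genes, which specify floral organs) rose in both phases of VBI-2, 6 of 6 in each. They reached group means of 8.41 to 321 TPM in exponential and 12.5 to 216 TPM in stationary VBI-2 and at most 0.228 TPM in any other group. As they were chosen on these samples, this is no independent evidence of their direction, and their relation to the EMF2-like levels was not tested.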

How the data were processed

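RNA-seq libraries of 4 tobacco suspension lines, 21 in 7 groups of 3 taken from the sample labels, had been quantified by the authors with Salmon (1.3.0 in the submitters' processing notes, which also name Trimmomatic; the methods give Rcorrector and Trim Galore) against the tobacco cDNA set with Nitab4.5 IDs. The deposited tables held estimated counts of reads, TPM and effective lengths per transcript, without scaling between libraries. Estimated counts were rounded, scaled by TMM and tested with edgeR 4.0.16 in R 4.3.3 on transcripts above 0.5 TPM on average in at least 1 group and with reads in the fit. VBI comparisons were fitted on 12 libraries, BY-2H against BY-2 and the BY-2H phases on 6, others on all 21. The p-values were adjusted over all transcripts tested (Benjamini-Hochberg), and each SE was taken as the absolute log2 fold change over the square root of F. The study's own test, sleuth, was not run here.

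The 4 members, the 14 other PRC2 transcripts, the neighbours and the floral genes come from the study's tables or the ID order, and the 5 most similar transcripts from Pearson r of log2(TPM + 0.5). Members, lists and rules were chosen with earlier results of these data known. Other settings tried were median-of-ratios scaling, an effective-length offset, edgeR's filterByExpr or no filter, DESeq2 1.42.0, limma 3.58.1 on TPM with 0.5 or 1 added before log2, other sets of libraries, the replicate number as a block, other fold limits, leaving out each library, and summed reads of 2 near copies. Scripts were tested on simulated data. With 10545447 or more estimated reads per library, a transcript of 1 TPM has few reads, and its values are less precise.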

Additional observations from a re-analysis of the deposited data

Results flagged for a closer look

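The effect of the habituated line differed between the VBI and the BY pair in stationary cells for each of the 4 EMF2-like transcripts, by edgeR's test of the difference itself over 21 libraries. The difference in log2 fold change, VBI-2 against VBI-0 minus BY-2H against BY-2, was −3.32 for Nitab4.5_0000600g0150.1, −3.09 for Nitab4.5_0001472g0030.1 and −0.67 for Nitab4.5_0002153g0020.1. For Nitab4.5_0007599g0010.1 it was −12.21 (adjusted p = 2.97e-15), a fitted value that depends on the prior count since stationary VBI-2 holds no read of it. Each of these was called in 21 of 21 other fits, except Nitab4.5_0002153g0020.1, which was called in 8 of 21. BY-2H differs from the other lines in company and read type, and the part of these in the differences cannot be told apart from the line.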

How the results depend on the processing

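Counts of called members were within 1.5 times the reported count in 196 of 199 alternatives, leaving out changes of the fold limit where none was applied. A fall from 4 to 3 passes this limit, as when Nitab4.5_0002153g0020.1 was lost in 13 of 21 other fits of the difference between the pairs. On the same basis, member fold changes were unchanged in 720 of 779. Unchanged means the same direction and side of the threshold or, with reads of both near copies summed, within the SE of the reported value. The 3 called members of each VBI comparison and of BY-2H against VBI-2 were called in every alternative. Without a fold change limit, 2 members were called in BY-2H against BY-2 and 4 in BY-2 against VBI-0, and leaving out 1 library each gave 1 to 2 in the latter. With a TMM factor, summed TPM was 86.7 and 88.6 in exponential and stationary BY-2H, 45.9 in stationary VBI-0, and 9.26 and 11.1 in exponential and stationary VBI-2. With the replicate number as a replicate block, 3 members were called in each VBI comparison, 0 in BY-2H against BY-2, and no call changed. Same-numbered libraries did not deviate together (r −0.10 to 0.08 over 27 pairs). Directions turned only for values that were not called. With the reads of both near copies summed, the interaction was 0.03 in place of −0.52 for Nitab4.5_0001472g0030.1 and the difference between the VBI-2 phases 0.25 in place of −0.15. Nitab4.5_0002153g0020.1 in BY-2H against exponential VBI-2 was −0.0084 with no filter and −0.086 and −0.079 with limma on log2(TPM + 0.5) and log2(TPM + 1). With the effective-length offset, Nitab4.5_0007599g0010.1 was −0.087 in BY-2H against BY-2, Nitab4.5_0002153g0020.1 −0.0017 between the VBI-0 phases and Nitab4.5_0000600g0150.1 0.020 between the BY-2H phases. Leaving out 1 library at a time, Nitab4.5_0002153g0020.1 ranged from −0.075 to 0.19 in BY-2H against exponential VBI-2, from −0.033 to 0.19 between the VBI-0 phases, from −0.029 to 0.18 in the interaction and from −0.23 to 0.030 between the BY-2H phases. Likewise Nitab4.5_0007599g0010.1 ranged from −0.073 to 0.20 in BY-2H against BY-2 and from −0.0044 to 0.20 between the BY-2H phases, and Nitab4.5_0000600g0150.1 from −0.033 to 0.029 there. The cause of these shifts was not tested. With no fold change limit, whole-table calls were 29425 in place of 18666 and 29962 in place of 19350 for exponential and stationary VBI-2 against VBI-0, and 8764, 2432 and 4668 between the phases of VBI-0, VBI-2 and BY-2H, in place of 2157, 481 higher with 292 lower, and 1200. A limit of 1.44 gave 1138, 411 and 598 there, limma on log2(TPM + 1) 1183, 425 and 569, and limma on log2(TPM + 0.5) 711 for BY-2H. One fit of all 21 libraries gave 478 for the VBI-2 phases, 570 for the BY-2H phases and 1157 in place of 3303 for the interaction, and limma on log2(TPM + 0.5) gave 1972 for the latter (819 higher and 1153 lower in place of 1938 and 1365). That limma fit put 60.6% of calls between the VBI-0 phases higher in place of 44.1%, and moved the median of all transcripts by −0.30 in BY-2 against VBI-0 (8337 higher and 15832 lower in place of 12152 and 13722). Depth limits the VBI-2 copies, with 38.9 to 112 reads per library for Nitab4.5_0000600g0150.1 and Nitab4.5_0001472g0030.1.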
